A study of Mus musculus with 6 samples.

Results

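The clock repressors are the genes whose products switch off the transcription driven by the CLOCK:BMAL1 activator pair. They were chosen by symbol as Per1, Per2, Per3, Cry1, Cry2, Nr1d1, Nr1d2, Ciart, Bhlhe40 and Bhlhe41, and all 10 were found among the 55335 genes measured. Liver RNA came from wild-type C57BL/6 mice, per the labels, in 3 libraries from mice gavaged with cadmium chloride at 20 mg per kg daily and in 3 libraries from control mice at 0 mg per kg, all at day 90. The libraries hold the RNA fraction left unbound by an antibody against N6-methyladenosine, per the labels, so abundance and the share of a transcript bound by the antibody cannot be told apart. The labels describe male mice of 6 to 8 weeks at the start and do not tie the 6 mice of a group to its 3 libraries, and p-values refer to the spread among libraries, part of which may be technical. The hour at which livers were taken is not given in the sources used here.

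Cadmium replicate 2 and control replicate 1 stood apart in makeup, and all 6 libraries went against the labelled sex. The 10 genes with most reads held 33.3% to 35.4% of reads in cadmium libraries, and 44.6%, 35.6% and 35.9% in control replicates 1, 2 and 3. Alb held 2.91% of reads in cadmium replicate 2 and 2.87% in control replicate 1, and 4.89% to 5.06% in the other 4 libraries. Xist, made from the inactive X chromosome, was at 27.1 to 35.5 FPKM in cadmium libraries and 19.7 to 25.8 FPKM in control libraries, while the Y-linked genes Ddx3y and Eif2s3y were listed at 0 in all 6. Whole reads recovered from the deposited values came to between 42115960 and 68587128 per library. Hepatocyte markers Alb, Apoa1, Ttr, Serpina1c, Cps1 and Hnf4a were present throughout, and 0 of the 6 were called (limma, 1 at an unadjusted p under 0.05, 0 by limma voom).

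The liver clock is a feedback loop. CLOCK and BMAL1 bind E-boxes and switch on the Per and Cry genes, whose proteins return to the nucleus as a complex and block their own activators, while CIART, BHLHE40 and BHLHE41 repress the same pair by other routes. The REV-ERB receptors encoded by Nr1d1 and Nr1d2 form a further arm: they bind heme and repress the BMAL1 gene Arntl, together with other genes that carry ROR elements. In mouse liver the transcripts cycle over the day in a fixed order, with Nr1d1 reaching its peak in the light phase before Per2, and with Cry1 later still.

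In cadmium livers 5 of the 9 repressors that could be tested fell and 1 rose. Ciart, Per2, Per1, Cry1 and Per3 fell, with mean levels between 2.46-fold and 7.55-fold lower in cadmium than in control. Nr1d1 was the gene that rose, to a mean 3.64 times that of control livers. Cry2, Nr1d2 and Bhlhe40 were not called. Bhlhe41 did not reach the filter of 1 FPKM in 3 libraries and was not tested. Over all 9908 tested genes 9.68% were called at an adjusted p of 0.05 (limma with Benjamini-Hochberg adjustment), 7.86% higher and 1.82% lower. The median log2 fold change of the 9 tested repressors was -0.95, against 0.09 for all tested genes, a difference of -1.04. The split of called genes between directions depended on scaling: 779 were higher and 180 lower in FPKM, 347 and 298 after quantile normalization, 510 and 233 after upper quartile scaling, 393 and 288 after trimmed mean scaling, and 381 and 493 in the deposited log2 values. Each of the 9 repressors kept its direction under all 16 alternatives tried, including each of these scalings. In bulk liver, fewer cells expressing a gene and less RNA per cell cannot be told apart.

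**Figure D1:**
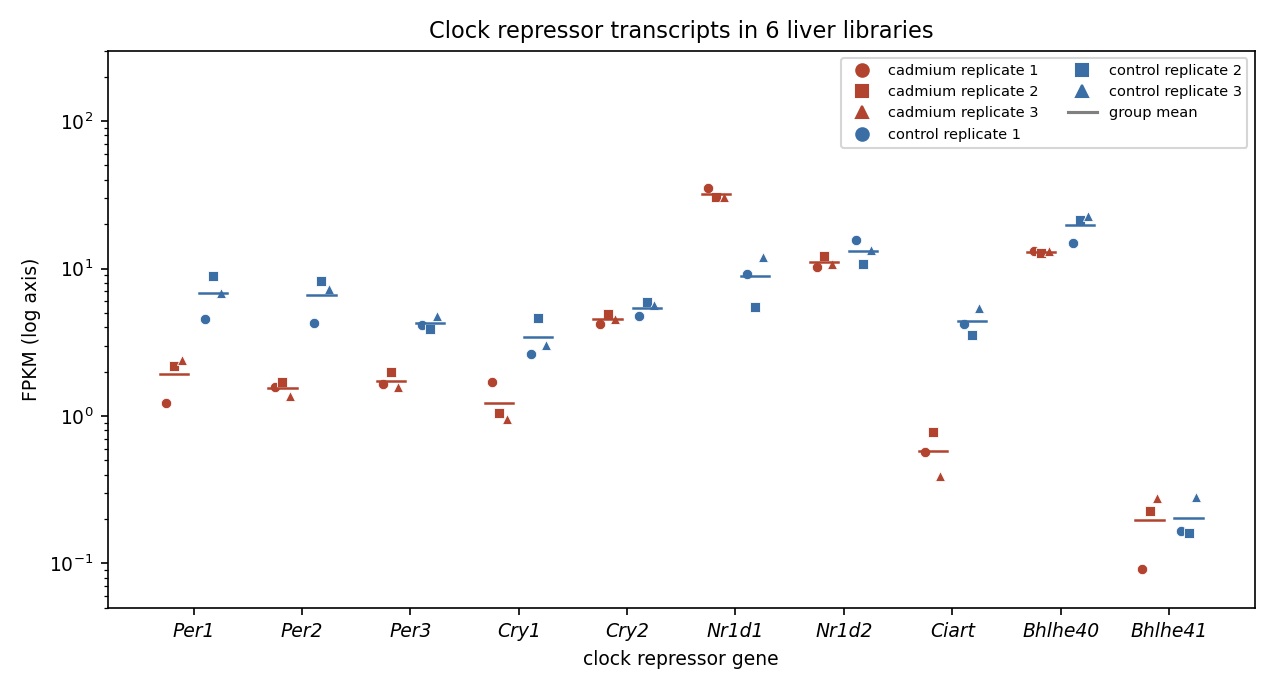
FPKM of the 10 clock repressors (log axis) in 3 cadmium libraries (red) and 3 control libraries (blue), 1 point per library, with a line at the group mean. The cadmium points lie below all control points for Per1, Per2, Per3, Cry1, Ciart and Bhlhe40 and above them for Nr1d1.

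Promoter sequence was examined for the 8 repressors that had a window in the RefSeq promoter table (GRCm38.p6, the mm10 assembly), each running from 250 bases before a transcription start to 50 after it. Searched on both strands were the E-box CACGTG, the variant E'-box CACGTT, the D-box TTANGTAA bound by the PAR bZIP factors, the ROR element core TAGGTCA and the cyclic AMP element TGACGTCA. Over all 32851 windows these were found in 7.15%, 4.68%, 2.32%, 2.61% and 1.79%. Per2 and Bhlhe40 had no window there, so their promoters were not examined. The stretches below are shown because these genes were called and carry matches upstream of the start. Capitals mark the matches, and each stretch is written 5′ to 3′ on the strand of its gene.
Ciart, chr3:95882237-95882374, minus strand: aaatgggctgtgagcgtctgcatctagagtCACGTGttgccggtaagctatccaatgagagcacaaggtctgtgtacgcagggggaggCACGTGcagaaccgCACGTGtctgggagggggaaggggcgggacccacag
Cry1, chr10:85185079-85185163, minus strand: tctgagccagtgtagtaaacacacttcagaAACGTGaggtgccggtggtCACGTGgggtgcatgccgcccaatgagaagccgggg
Per1, chr11:69098753-69098818, plus strand: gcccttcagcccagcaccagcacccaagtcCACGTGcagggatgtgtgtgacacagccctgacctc
Per3, chr4:151044786-151044900, minus strand: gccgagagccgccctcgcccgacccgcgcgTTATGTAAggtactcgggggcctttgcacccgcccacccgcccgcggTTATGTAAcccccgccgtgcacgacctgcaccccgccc
Nr1d1, chr11:98775378-98775435, minus strand: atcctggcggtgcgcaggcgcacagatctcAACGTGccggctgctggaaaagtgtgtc

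Ciart held 3 E-boxes in its window, a number reached or passed in 0.0883% of all windows. Their first bases lie 116, 58 and 44 bases before the start. Cry1 held an E'-box and an E-box 79 and 60 bases before its start, and Per1 an E-box 166 bases before the first of its 2 starts. Per3 held D-boxes 205 and 158 bases before the start and no E-box of these letters. Nr1d1, the repressor that rose, held an E'-box 28 bases before its start. Of the repressors that were not called or not tested, Cry2 held an E'-box, Bhlhe41 an E-box, and Nr1d2 none of the 5 motifs. A match describes letters in these windows and does not show binding.

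**Figure D2:**
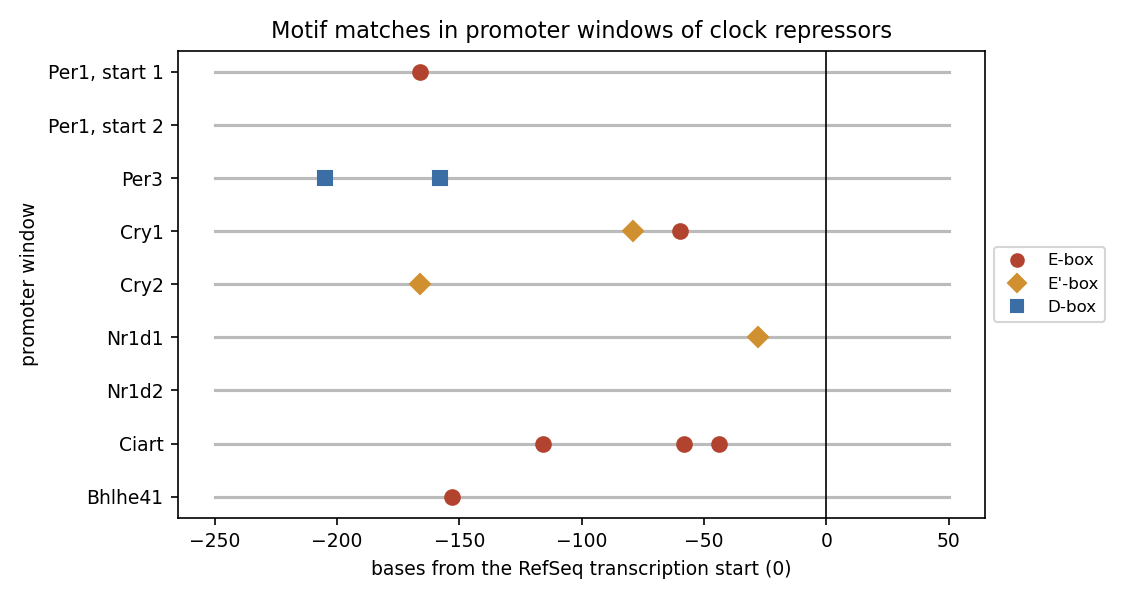
Matches of the E-box, E'-box and D-box in 9 promoter windows of 8 clock repressors, by distance in bases from the RefSeq transcription start. Ciart has 3 E-boxes within 116 bases of its start, Per3 has 2 D-boxes, and no match was found in the Nr1d2 window or at the second start of Per1.

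The 3 period genes were each lower in cadmium livers. Coordinates here are mm10, with gene models from GENCODE M21. Per2 (chr1:91415982-91459324, minus strand) encodes the scaffold of the repressor complex and had 1.58, 1.71 and 1.37 FPKM in cadmium replicates 1 to 3, against 4.27, 8.21 and 7.31 FPKM in control replicates 1 to 3. The groups did not overlap: the highest cadmium library lay below the lowest control library, control replicate 1. Mean levels were 1.55 ± 0.174 FPKM in cadmium and 6.60 ± 2.07 FPKM in control (SD, n = 3 each), a 4.25-fold lower mean. On the log2(FPKM + 1) scale, which understates changes at low FPKM, the fold change was -1.54 (SE 0.21, adjusted p = 0.0118, limma). Differences within the labels' batches 1, 2 and 3 were -1.03, -1.77 and -1.81 on that scale.

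Per1 (chr11:69095217-69109960, plus strand), the family member that responds fastest to hormonal and cyclic AMP signals, had 1.22, 2.20 and 2.40 FPKM in cadmium replicates 1 to 3, against 4.54, 8.95 and 6.84 FPKM in control replicates 1 to 3. Again no cadmium library reached the lowest control library. Its log2 fold change was -1.39 (SE 0.25, adjusted p = 0.0267, limma), and the 3 within-batch differences ran from -1.64 to -1.20. Per1 and Per2 had their lowest control values in control replicate 1 and their highest in control replicate 2, with highest-to-lowest ratios of 1.97 and 1.92. Leaving out any library except control replicate 1 ended the Per1 call, with adjusted p up to 0.0812, and without control replicate 1 it was 0.0181. Per2 lost its call without cadmium replicate 3 (adjusted p = 0.0564).

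Per3 (chr4:151003652-151044665, minus strand), which is dispensable for the rhythm itself in mice, had 1.66, 1.99 and 1.57 FPKM in cadmium replicates 1 to 3, against 4.16, 3.92 and 4.77 FPKM in control replicates 1 to 3. Its control libraries were the tightest of the family, with a highest-to-lowest ratio of 1.22. The mean was 2.46-fold lower in cadmium (log2 fold change -0.95, SE 0.10, adjusted p = 0.00688, limma), and the call was kept without any 1 library, with adjusted p up to 0.0377. Per3 was covered by 831 to 1619 recovered reads in cadmium libraries and 2304 to 2840 in control libraries. The gene lies wholly within the annotated span of Camta1 on the same strand, and Camta1 was at 0.151 to 0.164 FPKM in cadmium and 0.138 to 0.167 FPKM in control. 

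The 2 cryptochromes, the proteins that bind CLOCK:BMAL1 and hold it inactive, differed in their calls. Cry1 (chr10:85131700-85185064, minus strand) had 1.70, 1.05 and 0.957 FPKM in cadmium replicates 1 to 3, against 2.63, 4.65 and 3.05 FPKM in control replicates 1 to 3. The groups did not overlap, with cadmium replicate 1 nearest to the controls. The Cry1 difference was -0.98 on the log2(FPKM + 1) scale (SE 0.19, adjusted p = 0.0286, limma). With the replicate number as a block the adjusted p was 0.0846, and the call was also lost without cadmium replicate 2, cadmium replicate 3 or control replicate 3 (adjusted p of 0.0823, 0.109 and 0.0703).

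Cry2 (chr2:92403646-92434043, minus strand) had 4.20, 4.89 and 4.54 FPKM in cadmium replicates 1 to 3, against 4.77, 5.92 and 5.64 FPKM in control replicates 1 to 3. Cadmium replicate 2 lay above control replicate 1, so the groups overlapped. The log2 fold change was -0.21 with a 95% interval of -0.45 to 0.02 (adjusted p = 0.223, limma). In the deposited log2 values and with limma voom on recovered reads Cry2 was called lower, with log2 fold changes of -0.44 and adjusted p of 0.0477 and 0.0479. Cry1 per unit of Cry2 was 0.404, 0.214 and 0.211 in cadmium replicates 1 to 3, against 0.552, 0.785 and 0.540 in control replicates 1 to 3, so these ratios did not overlap. D930015M05Rik runs opposite to most of Cry2 and was at 0.288 to 0.541 FPKM in cadmium and 0.311 to 0.540 FPKM in control.

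Ciart, also known as Chrono, had the largest fold difference of means among the 10. It binds BMAL1 and represses E-box genes, its own among them. Ciart (chr3:95878503-95882251, minus strand) had 0.568, 0.779 and 0.394 FPKM in cadmium replicates 1 to 3, against 4.23, 3.52 and 5.40 FPKM in control replicates 1 to 3. Every cadmium library was below 1 FPKM and every control library above 3, so the groups were far apart. These levels rest on 68, 150 and 73 recovered reads in cadmium replicates 1 to 3, against 680, 488 and 643 in control replicates 1 to 3. The log2 fold change was -1.76 (SE 0.15, adjusted p = 0.00460, limma), and Ciart ranked 6 by p among the 9908 tested genes. With a pseudocount of 0.1 in place of 1 the log2 fold change was -2.74, and in the deposited log2 values it was -3.09. The call was kept without any 1 library, with adjusted p up to 0.0212, and with the replicate block (adjusted p = 0.0399). The antisense gene C920021L13Rik covers Ciart entirely and was at 0.0994 to 0.136 FPKM in cadmium and 0.0833 to 0.302 FPKM in control. Whether reads were assigned by strand is not given in the sources used here.

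Nr1d1, which encodes REV-ERB alpha, moved the other way. The gene (chr11:98767932-98775333, minus strand) had 35.1, 30.7 and 30.7 FPKM in cadmium replicates 1 to 3, against 9.16, 5.46 and 11.9 FPKM in control replicates 1 to 3. The cadmium libraries agreed to within a highest-to-lowest ratio of 1.14, while control libraries spread over a ratio of 2.18, and the groups did not overlap. On the log2(FPKM + 1) scale Nr1d1 was higher by 1.81 (SE 0.24, 95% interval 1.24 to 2.38, adjusted p = 0.0114, limma), and differences within batches 1, 2 and 3 were 1.83, 2.30 and 1.29. Without cadmium replicate 3 the adjusted p was 0.0515, with a log2 fold change of 1.84. The 3′ end of Nr1d1 overlaps that of Thra, a thyroid hormone receptor gene on the opposite strand, by 1075 bases. Thra also rose, to 2.32 to 2.52 FPKM in cadmium against 1.14 to 1.49 FPKM in control (log2 fold change 0.54, adjusted p = 0.0133, 0.0584 with the block and 0.0652 without cadmium replicate 3, limma). Reads within the shared bases cannot be told apart without strand.

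Nr1d2, the gene of the second receptor REV-ERB beta, did not follow Nr1d1. The gene (chr14:18204054-18239127, minus strand) had 10.2, 12.1 and 10.7 FPKM in cadmium replicates 1 to 3, against 15.6, 10.7 and 13.4 FPKM in control replicates 1 to 3. The groups overlapped through cadmium replicate 2 and control replicate 2. The log2 fold change was -0.24 with a 95% interval of -0.58 to 0.10 (adjusted p = 0.342, limma), and within batches the sign was negative in batches 1 and 3 and positive in batch 2. Nr1d1 per unit of Nr1d2 was 3.42, 2.54 and 2.88 in cadmium replicates 1 to 3, against 0.585, 0.510 and 0.888 in control replicates 1 to 3. Nr1d1 was thus the more abundant of the pair in every cadmium library and Nr1d2 in every control library, measured per kilobase. This ratio is taken inside a library and does not depend on the scaling between libraries.

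**Figure D3:**
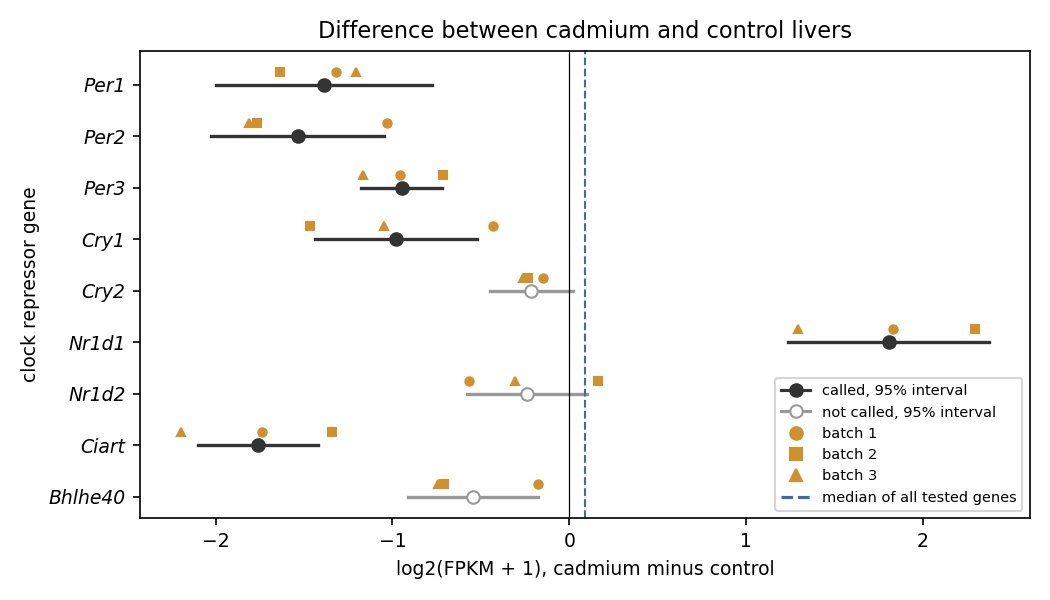
Difference in log2(FPKM + 1), cadmium minus control, for the 9 tested clock repressors, with the 95% interval from limma (filled where called at an adjusted p of 0.05) and the 3 within-batch differences as small symbols. The intervals of Per1, Per2, Per3, Cry1, Ciart and the uncalled Bhlhe40 lie below 0 and that of Nr1d1 above 0, and batch 2 alone puts Nr1d2 above 0.

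Bhlhe40 and Bhlhe41 encode DEC1 and DEC2, which compete with CLOCK:BMAL1 for E-boxes. Bhlhe40 (chr6:108660629-108666925, plus strand) had 13.1, 12.7 and 13.2 FPKM in cadmium replicates 1 to 3, against 15.0, 21.4 and 22.8 FPKM in control replicates 1 to 3. The groups did not overlap, with the cadmium libraries within a highest-to-lowest ratio of 1.04 and control replicate 1 nearest to them. Its log2 fold change of -0.54 was not called (SE 0.16, 95% interval -0.91 to -0.17, adjusted p = 0.0738, limma). It was called lower after quantile, upper quartile and trimmed mean scaling (adjusted p of 0.0385, 0.0430 and 0.0374), in the deposited log2 values (0.0143), with voom on recovered reads (0.0142) and without control replicate 1 (0.0171). Bhlhe41 (chr6:145858243-145865558, minus strand) was scarce in all libraries, at 0.0912, 0.226 and 0.277 FPKM in cadmium replicates 1 to 3 and 0.167, 0.161 and 0.281 FPKM in control replicates 1 to 3. Between 33 and 150 recovered reads in cadmium and between 68 and 102 in control stood behind these values, and the groups overlapped.

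Counted together, 7 of the 9 tested repressors had groups that did not overlap, where 33.6% of all tested genes did not. Within the labels' batches, 7 of the 9 tested repressors were lower in cadmium in all 3 batches (Per1, Per2, Per3, Cry1, Cry2, Ciart and Bhlhe40), where 12.7% of all tested genes were. Nr1d1 was higher in all 3 batches, as were 36.9% of all tested genes. Apart from Cry2, these genes had groups that did not overlap, so any pairing of libraries would give them the same direction in all 3 batches. Without cadmium replicate 3 the fit called 101 genes in all, and among the repressors it called Per3 and Ciart lower and none higher. In that fit 7 of the 9 were at an unadjusted p under 0.05, as were 1855 of all 9908 tested genes. In the fit with all libraries 7 of the 9 were also at an unadjusted p under 0.05, against 27% of all tested genes. Without cadmium replicate 2 the fit called 3 repressors lower and 1 higher, where 137 of all 9908 tested genes were lower and 424 higher. Without control replicate 3 the repressor counts were the same, with 75 of all tested genes lower and 297 higher. Without control replicate 1 the fit called 6 repressors lower and 1 higher, with 242 of all tested genes lower and 539 higher.

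In the authors' deposited table, whose test is not given in the sources used here, 8 of the 10 repressors had an FDR under 0.05, against 6.87% of its 34352 genes. Of those genes 9908 passed the FPKM filter used here, as did 9 of the 10 repressors, so the shares are over unlike sets. The authors' deposited table has 7 of them lower, against 3.15% of genes, and Nr1d1 higher, against 3.72%. Its log2 fold changes are differences of mean log2 read values and were -3.09 for Ciart, -2.22 for Per2, -1.99 for Per1, -1.65 for Cry1, -1.48 for Per3, -0.76 for Bhlhe40 and -0.44 for Cry2. The authors' deposited table gives 1.75 for Nr1d1, with an FDR of 9.33e-13. By p-value in the authors' deposited table Ciart ranked 6, Per2 ranked 8 and Per3 ranked 13. Nr1d2 had an FDR of 0.066 and Bhlhe41 of 0.979 in the authors' deposited table.

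The order of levels among the repressors differed between the groups. In cadmium livers Nr1d1 stood first at 32.1 ± 2.52 FPKM, followed by Bhlhe40 at 13.0 ± 0.270 FPKM, Nr1d2 at 11.0 ± 0.965 FPKM and Cry2 at 4.54 ± 0.347 FPKM (SD, n = 3), and the ranges of neighbours in that order did not touch. Below them Per1, Per3, Per2 and Cry1, at means of 1.94, 1.74, 1.55 and 1.23 FPKM, overlapped their neighbours, and Ciart at 0.580 and Bhlhe41 at 0.198 FPKM came last. In control livers Bhlhe40 stood first at 19.7 ± 4.17 FPKM, ahead of Nr1d2 at 13.3 ± 2.48 FPKM and Nr1d1 at 8.84 ± 3.24 FPKM (SD, n = 3). From Bhlhe40 down to Cry1 at 3.44 ± 1.06 FPKM every control neighbour overlapped the next, and Bhlhe41 at 0.203 FPKM stood apart below.

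Among the pairs compared, ratios within a library separated the groups most for Nr1d1 and Ciart. The pairs were chosen with results known, and this pair sets the repressor that rose against the one with the largest fall. Nr1d1 per unit of Ciart was 61.7, 39.4 and 77.8 in cadmium replicates 1 to 3, against 2.17, 1.55 and 2.21 in control replicates 1 to 3. Per3 per unit of Per2 was 1.05, 1.16 and 1.15 in cadmium replicates 1 to 3, against 0.975, 0.477 and 0.652 in control replicates 1 to 3, and control replicate 1 came close to the cadmium values. Per1 per unit of Per2 overlapped, at 0.773, 1.29 and 1.76 in cadmium replicates 1 to 3 and 1.06, 1.09 and 0.935 in control replicates 1 to 3. These ratios are descriptions with no test.

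**Figure D4:**
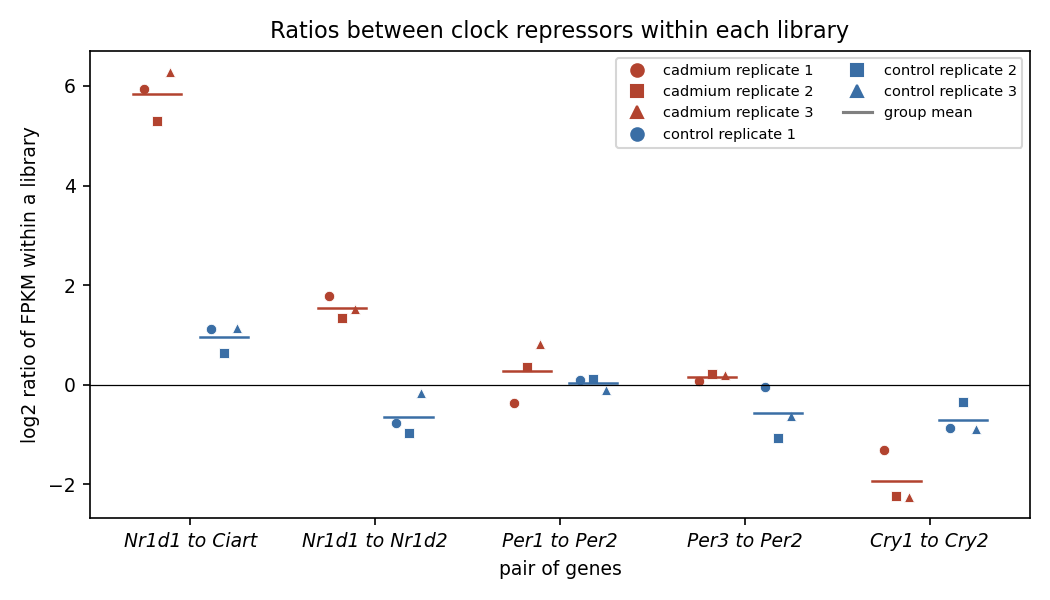
log2 ratio of the FPKM of a pair of clock repressors within each library, for 3 cadmium (red) and 3 control (blue) libraries, with lines at group means. Cadmium libraries lie above control libraries for Nr1d1 to Ciart, Nr1d1 to Nr1d2 and Per3 to Per2, below them for Cry1 to Cry2, and among them for Per1 to Per2.

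Other genes of the clock were read from 6 lists by role, drawn up with earlier results of these data known. Of 51 genes listed 41 were tested, and 5 rose and 10 fell, where 7.86% of all tested genes rose and 1.82% fell. The number that rose was 3 after quantile or trimmed mean scaling and 2 by voom or from the deposited log2 table. With the replicate block 1 rose and 7 fell, and without cadmium replicate 3 it was 0 and 3. Without that library 19 of the 41 were at an unadjusted p under 0.05, as were 1855 of all 9908 tested genes. Among the activator genes, Clock rose to 2.20 ± 0.298 FPKM in cadmium, against 1.16 ± 0.215 FPKM in control (SD, n = 3 each, log2 fold change 0.56, adjusted p = 0.0221, limma, 0.0705 with the block and 0.0858 without cadmium replicate 3). The Clock call was also lost without cadmium replicate 1 or control replicate 2. Arntl, which encodes BMAL1 and is the classic target of REV-ERB alpha, was below the filter and not tested, at 1.09, 0.404 and 0.593 FPKM in cadmium replicates 1 to 3 and 0.0667, 0.164 and 0.0847 FPKM in control replicates 1 to 3. Npas2, a paralogue of Clock, was also below the filter, at 0.705, 0.115 and 0.264 FPKM in cadmium replicates 1 to 3 and 0.00535, 0.0785 and 0.0394 FPKM in control replicates 1 to 3. For both genes each cadmium library lay above every control library.

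Of the 4 PAR bZIP and related factors, Tef and Hlf fell and their antagonist Nfil3 rose (adjusted p of 0.0258, 0.0406 and 0.0198, limma, and 0.0750, 0.0584 and 0.0584 with the block). All 3 calls were lost without cadmium replicate 3 (adjusted p of 0.104, 0.146 and 0.0865). Among the fits without 1 library, Tef kept its call only without cadmium replicate 2 and Hlf only without control replicate 1. Nfil3 also lost its call without cadmium replicate 1, and it was not called in the deposited log2 values or by voom (adjusted p up to 0.0599). Dbp, a high-amplitude cycler of that family, was at 9.66, 20.7 and 14.0 FPKM in cadmium replicates 1 to 3 and 29.1, 20.6 and 25.3 FPKM in control replicates 1 to 3, and was not called (adjusted p = 0.119). Of 10 tested kinases, ligases and partners of PER and CRY proteins, 0 were called (limma, 1 at an unadjusted p under 0.05, 0 by voom), with a median log2 fold change of 0.05. In the list of REV-ERB corepressors and heme supply, Tbl1xr1 rose (adjusted p = 0.0287, 0.0616 with the block), but the call was lost whichever library was left out (adjusted p of 0.0510 to 0.128), and after quantile or trimmed mean scaling, in the deposited log2 values and by voom (adjusted p up to 0.0805 over these 4). In the same list the heme synthesis enzyme gene Alas1 fell to 10.3 ± 6.98 FPKM in cadmium, against 115 ± 13.5 FPKM in control (adjusted p = 0.0114, limma, 0.0547 without cadmium replicate 3). Ncor1 and Hdac3, the core of that complex, were not called (adjusted p of 0.205 and 0.527).

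Of 10 tested rhythmic liver outputs 7 fell and 0 rose, where 1.82% of all tested genes fell and 7.86% rose. All 10 were at an unadjusted p under 0.05, against 27% of all tested genes. Voom called 9 of the 10, and 869 of the 9908 tested genes. These outputs were listed with earlier results of these data known, so the counts give no independent support. The cell cycle kinase gene Wee1, an E-box target, fell to 0.985 ± 0.186 FPKM in cadmium, against 5.65 ± 1.10 FPKM in control (adjusted p = 0.00388, limma). Por, the electron donor of liver cytochromes P450, and Tsku, a secreted hepatokine gene, also fell, with log2 fold changes of -1.37 and -4.40 (adjusted p of 0.00739 and 0.00994). These 3 calls were kept with the block and without any 1 library. The other 4 that fell, Usp2, Noct, Nampt and Lonrf3, were not called without cadmium replicate 3 (adjusted p of 0.0606, 0.131, 0.0663 and 0.0792), and Nampt and Lonrf3 were not called with the block either (0.0516 and 0.0594). Noct also lost its call without cadmium replicate 1, cadmium replicate 2 or control replicate 3, and Nampt without cadmium replicate 1. Of 9 tested genes of light, temperature and stress inputs 2 rose: Id2, with a log2 fold change of 0.91 (adjusted p = 0.0143, 0.0516 with the block and 0.0680 without cadmium replicate 3), and Cirbp, a cold-induced RNA-binding protein gene, with 0.61 (adjusted p = 0.0312, 0.0499 with the block, and up to 0.0767 under the 5 scaling alternatives, none of which called it). Id2 also lost its call without cadmium replicate 1. Among the fits without 1 library, Cirbp kept its call only without control replicate 1.

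**Figure D5:**
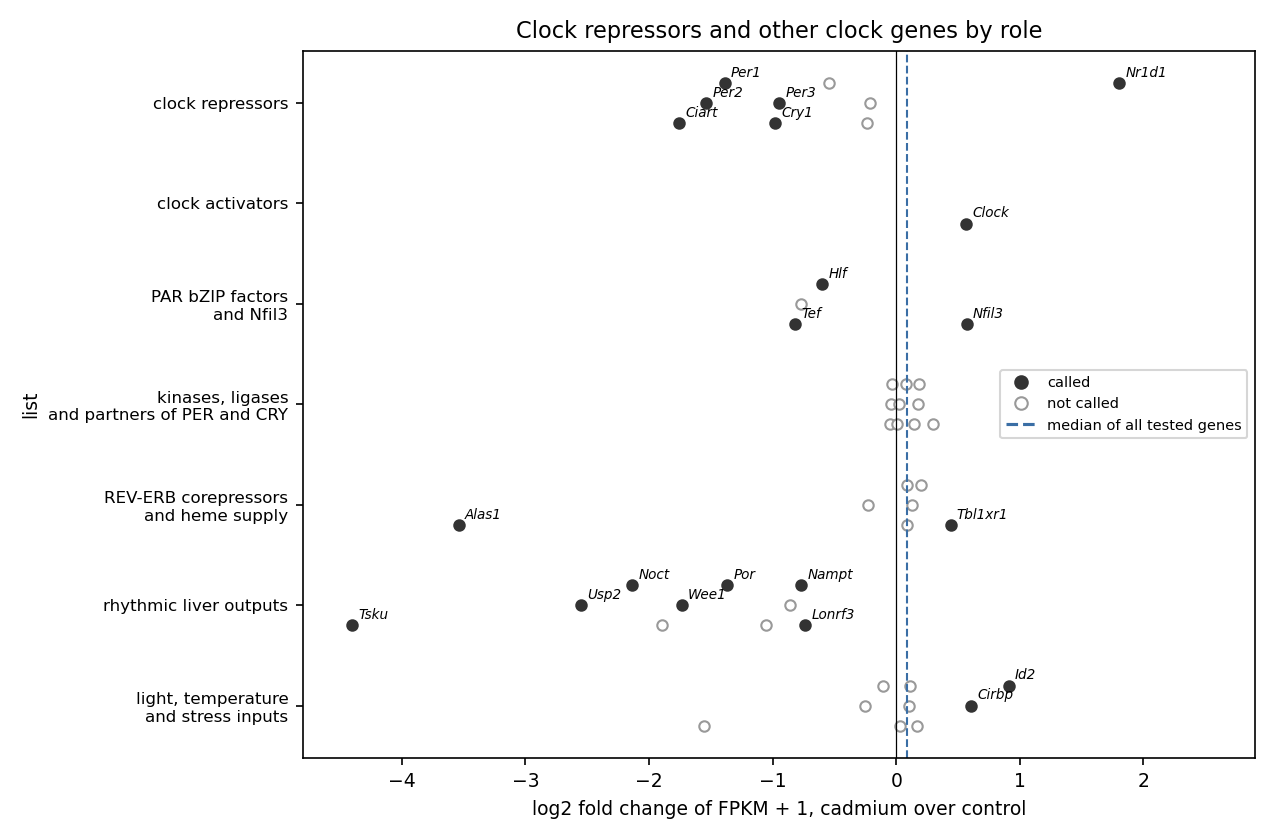
log2 fold change of FPKM + 1, cadmium over control, for the 9 tested clock repressors and 41 other tested clock genes grouped by role, filled and named where called. The repressors and the rhythmic outputs lie mostly below 0, and these genes were chosen with earlier results of these data known. Nr1d1 at 1.81 is the highest of all points, and the kinases and ligases lie near the median of all genes.

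Genes whose profile over the 6 libraries was closest to a called repressor were found by the root mean square distance of centred log2(FPKM + 1) values. Nearest to Nr1d1 were Coq8a, a kinase-like gene of coenzyme Q synthesis, at a distance of 0.19, and Cldn1, a tight junction claudin, at 0.26, and 1 gene lay within 0.2. Nearest to Ciart were Coq10b, a coenzyme Q chaperone gene, at 0.18 and Tfrc, the transferrin receptor, at 0.19. Coq8a rose to 64.6 ± 11.2 FPKM in cadmium, against 19.8 ± 5.29 FPKM in control (adjusted p = 0.00891, limma), and Coq10b fell to 1.40 ± 0.522 FPKM, against 6.40 ± 1.31 FPKM in control (adjusted p = 0.00869, 0.0505 with the block). Nearest to Per1 were Mup7, a member of a multigene family whose reads may be shared, and Plk3, which was not called (adjusted p = 0.0514). Nearest to Per2 were Cebpb, a liver transcription factor gene, and the chaperone gene Hsph1, at 0.21 and 0.22. Nearest to Per3 were Fam47e and Nmrk1, and nearest to Cry1 were Zfp970 and Alpl. Such distances over 6 libraries describe resemblance only. These genes were picked for their likeness to called repressors in the same libraries, so their directions and p-values give no independent support.

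Markers of some other liver cells differed between the groups. Of 6 stellate cell and fibroblast markers 5 rose, where 7.86% of all tested genes rose, and their summed level was 29.1 to 32.4 FPKM in cadmium libraries, against 12.1 to 19.3 FPKM in control libraries. Of 5 tested Kupffer cell markers 1 rose, Adgre1, and their list summed to 41.0 to 50.7 FPKM in cadmium, against 24.3 to 40.0 FPKM in control. The Kupffer marker Timd4, below the filter and not tested, lay the other way without overlap, at 0.0684 to 0.111 FPKM in cadmium and 0.396 to 0.725 FPKM in control, and Vsig4 had a log2 fold change of -0.19 (adjusted p = 0.714). Of 6 endothelial markers 1 rose, Lyve1, and the sums overlapped, at 27.5 to 37.6 FPKM in cadmium and 20.3 to 30.5 FPKM in control. Neutrophil markers summed to 1.30 to 1.66 FPKM in cadmium and 0.0799 to 0.722 FPKM in control, with Mpo and Ly6g listed at 0 in all libraries. Most of the cadmium sum was S100a9, at 1.10, 1.10 and 1.01 FPKM in cadmium replicates 1 to 3. In control replicates 1 to 3 S100a9 was at 0, 0.579 and 0 FPKM. S100a9, the 1 tested gene of that list, was called higher (adjusted p = 0.0337, limma) but not by voom. Ngp was above 0 only in control replicate 2, at 0.144 FPKM. Lymphocyte markers summed to 1.07 to 1.45 FPKM in cadmium and 0.764 to 1.63 FPKM in control, which overlapped. Cholangiocyte markers summed to 7.72 to 26.2 FPKM in cadmium and 6.40 to 10.2 FPKM in control, and red cell markers to 175 to 568 FPKM in cadmium and 127 to 446 FPKM in control, and both pairs of sums overlapped. Their part in the values of the clock repressors was not tested.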

How the data were processed

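The authors deposited FPKM (fragments scaled by gene length and library size) for 55335 genes and a second table of log2 values for 34352 genes with symbols, group means, log2 fold changes, p-values and FDR. The submitters' processing notes name the mm10 build, the aligner STAR (2.7.1a), cutadapt (1.1.8), DESeq2, MACS2 (2.1.1) and SAMtools (1.3.1) without order. Which program counted reads, on which annotation, and which test gave the deposited p-values is not given there. Undoing log2 in the deposited log2 values gave whole multiples of 1 step per library within 0.05 for 100% of values above 0, taken as reads over a size factor.

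Cadmium was compared with control by limma 3.58.1 (R 4.3.3) on log2(FPKM + 1) with variance trend and robust moderation, keeping 9908 genes that reached 1 FPKM in 3 or more of 6 libraries. The Benjamini-Hochberg threshold was 0.05. The fit was tested on simulated data. The pairing of replicate numbers comes from the labels, which give them as batches. Deviations from group means correlated at -0.21, -0.23 and -0.02 between same-numbered libraries. Between unlike-numbered libraries the correlations ran from -0.10 to 0.28, with the highest between cadmium replicate 2 and control replicate 1. Coordinates are from GENCODE M21 on GRCm38. Genes named by rule are the 10 repressors, the 2 nearest profiles of each called one and up to 3 called genes of each list. Arntl, Clock, Npas2 and Dbp, cell type markers, Xist, Y-linked genes and genes that overlap a repressor were added. The remaining rhythmic outputs that fell, Ncor1 and Hdac3 were named outside these rules. A further list of clock genes is not reported here. The members and lists were chosen with earlier results of these data known. Alternatives were pseudocount, filter, scaling, table, moderation, replicate block and each library left out. Precision is limited by 3 libraries a group.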

Additional observations from a re-analysis of the deposited data

How the results depend on the processing

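Of 144 recomputed fold changes (9 tested repressors, 16 alternatives) 0 changed sign, 17 lost a call and 8 gained one. With no filter on low values, 34351 genes were tested, and 31 were called higher and 6 lower. No repressor was called in either direction (0 and 0, limma, 7 at an unadjusted p under 0.05). None of the other clock genes was called either (0 and 0, with 28 at an unadjusted p under 0.05). Of all 34351 genes, 5625 were at an unadjusted p under 0.05. The repressor fold changes were then -1.39 for Per1, -1.54 for Per2, -0.95 for Per3, -0.98 for Cry1, 1.81 for Nr1d1 and -1.76 for Ciart, with adjusted p between 0.0554 and 0.128. Bhlhe41, tested there alone, was at -0.01 (adjusted p = 0.991). Genes called higher and lower numbered 347 and 298 after quantile normalization, 510 and 233 after upper quartile scaling, 393 and 288 with trimmed means, 381 and 493 from the deposited log2 table, 380 and 489 by voom, and 184 and 64 with the replicate block. The median fold change of all genes ran from -0.06 to 0.09 over these scalings. Other clock genes called higher numbered 3 after quantile or trimmed mean scaling, 2 with voom or the deposited log2 table, and 1 with the replicate block, which left 7 lower. Pairing by the replicate block put Cry1 at -0.98 (adjusted p = 0.0846) and changed no other repressor's call. Bhlhe40 gained a call at -0.63, -0.61 and -0.66 after quantile, upper quartile and trimmed mean scaling. It gained one at -0.76 with voom and with the deposited log2 table, as did Cry2 at -0.44. Without 1 library, genes called higher ran from 78 to 539 and lower from 23 to 242, repressors higher from 0 to 1 and lower from 2 to 6, and other clock genes higher from 0 to 5 and lower from 3 to 11, and the fewest calls came without cadmium replicate 3. Without 1 library the fold change ran from -1.61 to -1.19 for Per1, -1.78 to -1.38 for Per2, -1.12 to -0.79 for Cry1, 1.53 to 2.03 for Nr1d1 and -0.72 to -0.43 for Bhlhe40. The cause of these losses was not tested. Ciart and Bhlhe41 rest on the fewest reads, down to 68 and 33 in a library.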

Other observations

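Summed over a family, period transcripts came to 4.46, 5.90 and 5.34 FPKM in cadmium replicates 1 to 3, against 13.0, 21.1 and 18.9 FPKM in control replicates 1 to 3. The sums did not overlap. Cryptochrome sums were closer, at 5.89, 5.94 and 5.49 FPKM in cadmium replicates 1 to 3 and 7.40, 10.6 and 8.68 FPKM in control replicates 1 to 3. The REV-ERB pair summed to 45.3, 42.8 and 41.3 FPKM in cadmium replicates 1 to 3, against 24.8, 16.2 and 25.3 FPKM in control replicates 1 to 3, and these sums did not overlap either. The share of each period gene in its family overlapped between the groups: Per2 made up 25.6% to 35.4% of the sum in cadmium and 32.9% to 39.0% in control.

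Among control livers the repressors did not vary together. Control replicate 2 had the highest Per1, Per2, Cry1 and Cry2 and the lowest Nr1d1, Nr1d2, Per3 and Ciart of the 3. Control replicate 3 had the highest Nr1d1, Ciart, Per3 and Bhlhe40. The coefficient of variation among control libraries was 36.6% for Nr1d1, 32.5% for Per1 and 31.3% for Per2, and among cadmium libraries 7.85%, 32.5% and 11.2% for the same genes. Groups of 3 libraries are too small to test for a library that stands out.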
